A study of Mus musculus with 21 samples.

Results

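CXCR3 ligands are 3 chemokines, Cxcl9, Cxcl10 and Cxcl11, measured here in cultured mouse aortic smooth muscle cells given an antibody to the lymphotoxin beta receptor (LTBR), tumour necrosis factor (TNF) or both. The members were chosen by name: every probe set on the array annotated to 1 of these 3 gene symbols was taken, which gave 5 of 45101 probe sets. Cxcl9 has 2 (1418652_at and 1456907_at), Cxcl10 has 1 (1418930_at) and Cxcl11 has 2 (1419697_at and 1419698_at).

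Cells were grown from aortas of C57BL/6J mice, all male and aged 10 to 12 weeks, with no other allele or agent named, and were refed 24 h before the stimuli were added. At 24 h there were 3 arrays of TNF (1 ng/ml) with anti-LTBR (10 µg/ml), 4 of TNF alone, 4 of anti-LTBR alone and 4 of PBS, the vehicle. At 2 h and at 6 h there was 1 array each of TNF, anti-LTBR and PBS, and these times carry no test. Arrays are named by the numbers 0 to 3 of the labels. Whether a number is 1 culture or 1 animal is not stated, so a p-value here reflects the spread of the arrays, which may be technical.

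CXCR3 is a chemokine receptor of activated T cells and natural killer cells, and its ligands draw those cells into inflamed tissue, including the artery wall. Cxcl9 is known mainly as a gene induced by interferon gamma, Cxcl10 as one induced by type I and type II interferons and by NF-κB, the pathway that TNF and LTBR both feed. Cxcl11 binds CXCR3 with high affinity in other mouse strains and in people, but C57BL/6 mice are known to carry a Cxcl11 frameshift that removes the protein.

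The 3 genes lie together on chromosome 5. In the RefSeq annotation of GRCm38.p6, an assembly of C57BL/6J, Cxcl9 spans bases 92321331 to 92328079 on the minus strand, Cxcl10 spans 92346638 to 92348889 on the minus strand and Cxcl11 spans 92359544 to 92363296. RefSeq lists Cxcl11 as a transcribed pseudogene. Cxcl10 and Cxcl11 both fall within Art3, an ADP-ribosyltransferase gene on the plus strand from 92331799 to 92414628.

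The promoters of Cxcl10 and Cxcl9 are shown because these are the genes with a change that passed the test at 24 h. Each is the 250 bases before the RefSeq start on the gene's own strand, 5′ to 3′, at chr5:92348890-92349139 for Cxcl10 and chr5:92328080-92328329 for Cxcl9, both on the minus strand. Capitals mark exact matches to the interferon-stimulated response element (GAAA and GAAA with 2 bases between them) or to the κB consensus. Both strands were searched. The κB consensus was GGGRNNYYCC, where R is A or G, Y is C or T and N is any base.
Cxcl10: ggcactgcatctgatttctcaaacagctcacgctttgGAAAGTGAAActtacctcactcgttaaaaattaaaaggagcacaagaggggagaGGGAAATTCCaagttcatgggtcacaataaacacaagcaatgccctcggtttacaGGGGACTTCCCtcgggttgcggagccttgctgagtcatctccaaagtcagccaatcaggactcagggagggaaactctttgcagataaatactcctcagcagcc
Cxcl9: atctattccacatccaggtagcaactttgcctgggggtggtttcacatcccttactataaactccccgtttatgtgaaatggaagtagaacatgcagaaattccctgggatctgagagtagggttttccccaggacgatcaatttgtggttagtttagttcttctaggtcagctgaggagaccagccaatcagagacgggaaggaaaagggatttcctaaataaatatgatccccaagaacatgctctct

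The Cxcl10 window held 1 interferon-stimulated response element, GAAAGTGAAA, 213 to 204 bases before the start. It held a κB match, GGGAAATTCC, 159 to 150 bases before the start, and a run of overlapping κB matches, GGGGACTTCCC, 104 to 94 bases before it. The Cxcl9 window held no exact match to either motif, so all of its letters are lower case. Sites that differ from a motif by 1 base were not searched for. With 50 bases after the start included in the search, 3.44 percent of 32851 mouse promoters held the response element and 8.46 percent held the κB consensus. The STAT motif TTCNNNGAA, held by 8.30 percent of promoters, was in neither window. TATAAA, held by 13.6 percent, was in the Cxcl9 window 195 to 190 bases before the start and not in that of Cxcl10. A match is a description of letters only, and a motif that is not in these windows may lie elsewhere.

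The deposited values are linear signal intensities with a common trimmed mean of 500.0 on every array, and the array medians ran from 106.8 to 139. The smooth muscle markers Acta2 (16442 to 19662) and Tagln (10305 to 15454) were high on all 21 arrays. Cnn1, Smtn, Lmod1 and Myh11 were lower but above the array median on all 21. Des (18.9 to 478.3) was above it on 12 arrays and Myocd (27.5 to 204.8) on 8. Myh11 was at 110.7 to 202 on the arrays numbered 0, and at 529.2 to 3337.8 on those numbered 1 to 3. The arrays numbered 0 stood apart in the endothelial list of 10 genes. Its summed signal was 19969 to 21161 on the 3 number 0 arrays at 24 h, 16728 to 19378 on those at 2 and 6 h, and 896 to 2738 on the arrays numbered 1 to 3. All arrays at 2 and 6 h carry the number 0, and the combination has no number 0 array. Results are therefore also given for the arrays numbered 1 to 3 where that changes a call.

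Cxcl10 was highest with both agonists at 24 h and lay above PBS with each agonist alone. At that time its signal was 1571, 2064 and 1187 with TNF and anti-LTBR (arrays 1 to 3). TNF alone gave 200.9, 190.5, 258.4 and 164.0 (arrays 0 to 3), anti-LTBR alone gave 137.2, 258.3, 398.4 and 459.9, and PBS gave 84.2, 13.9, 32.7 and 77.7. Every array with an agonist lay above every PBS array, and all 3 combination arrays lay above every array with 1 agonist. Over all probe sets, the share whose groups did not overlap in this direction was 4.2 percent for the combination against PBS, 1.13 percent for TNF and 1.19 percent for anti-LTBR against PBS. It was 2.67 percent for the combination against TNF and 3.28 percent against anti-LTBR. The TNF and anti-LTBR arrays overlapped, with the lowest and the highest 2 of those 8 arrays all from anti-LTBR. The means were 1607 ± 439 with both (SD, n = 3), 203.5 ± 39.8 with TNF, 313 ± 145 with anti-LTBR and 52.1 ± 34.3 with PBS (n = 4 each).

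**Figure D1:**
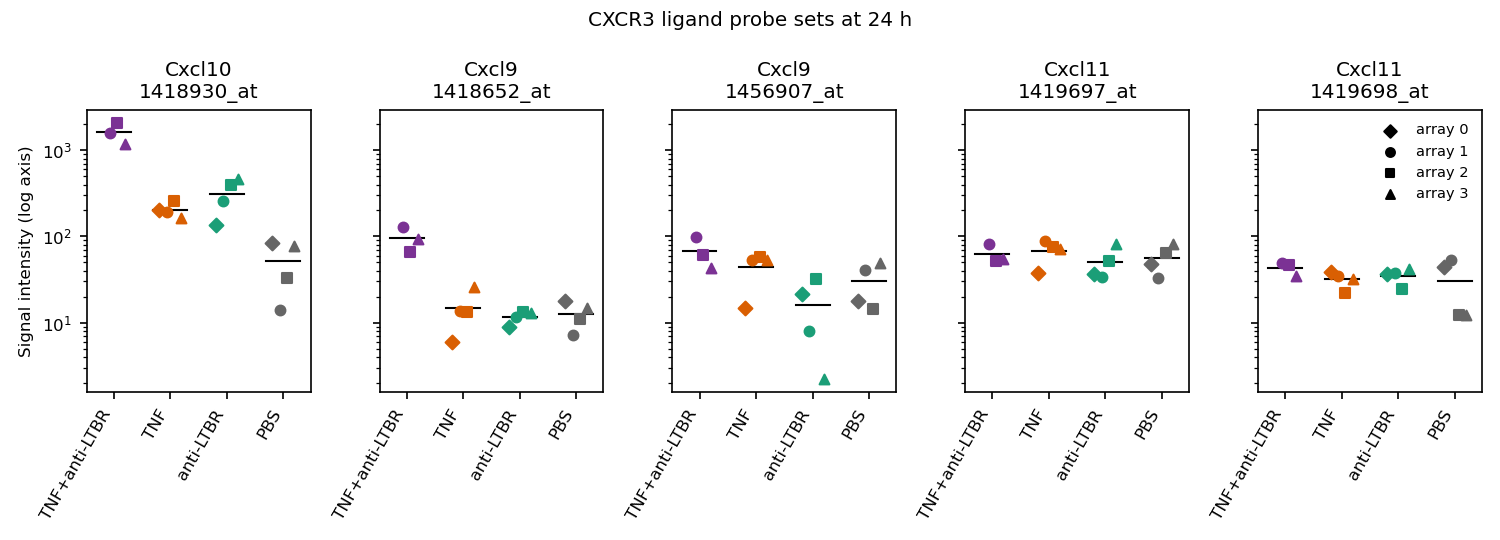
Signal of the 5 probe sets at 24 h on a log axis, by group, with 1 point per array, its shape giving the array number, and a line at each group mean. Cxcl10 with both agonists lies at 1187 to 2064, above all other arrays, and Cxcl9 1418652_at with both lies at 66.6 to 130 against 5.9 to 25.9 with TNF alone.

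In the limma fit of 12446 genes, Cxcl10 was 4.87 ± 0.46 log2 units higher with both agonists than with PBS (SE, adjusted p = 3.55e-05), a 29.1-fold difference on the scale of log2(signal + 10.2). The lowest PBS signal, 13.9, is near the added constant, so this size depends on it. Over 12 other settings the difference ran from 4.05 to 5.19 log2 units and was called in each. Of all genes tested 1.82 percent were called higher in that comparison, at an adjusted p under 0.05. Anti-LTBR alone gave a difference from PBS of 2.45 ± 0.42 (limma adjusted p = 0.0436), where 0.129 percent of genes were called higher. That call was lost when any of 13 of the 15 arrays was left out (limma adjusted p up to 0.208), the exceptions being PBS array 0 and anti-LTBR array 0. TNF alone gave 1.96 ± 0.42 (limma adjusted p = 0.0861), where 0.337 percent were called higher. With the array number as a block, which the pairing of the arrays allows, the TNF difference was also 1.96 and was called (limma adjusted p = 0.00956), beside 3.06 percent of genes. The anti-LTBR difference was again 2.45 with the block and was called (limma adjusted p = 0.00297), beside 2.55 percent of genes. In a bulk sample, more cells with the transcript and more transcript per cell cannot be told apart.

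The 2 single agonists did not differ beyond their spread in Cxcl10. TNF minus anti-LTBR was -0.48 log2 units, with a 95 percent interval of -1.39 to 0.43. Of all genes 0.0161 percent were called in the opposite direction, higher with TNF than with anti-LTBR. The combination was above TNF alone by 2.90 ± 0.46 (limma adjusted p = 0.0460, 0.0482 percent of genes called higher) and above anti-LTBR alone by 2.42 ± 0.46 (limma adjusted p = 0.0368, 0.362 percent called higher). Both differences were just past the threshold and missed it when all probe sets were tested together (limma adjusted p = 0.0619 and 0.0554). With the number as a block both were called (limma adjusted p = 0.00197 and 0.00517), beside 3.46 and 2.78 percent of genes.

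Within each array number the combination was above both single agonists. For Cxcl10 the ratio of the combination to TNF alone was 8.24, 7.99 and 7.24 on arrays 1, 2 and 3. The ratio to anti-LTBR alone was 6.08, 5.18 and 2.58, so array 3 had the smallest. On the log2(signal + 10.2) scale, the matched differences from PBS ran from 3.77 to 6.04 with both agonists, 0.99 to 3.06 with TNF and 0.64 to 3.48 with anti-LTBR. Array 0, whose PBS signal was the highest of 4, had the smallest anti-LTBR difference, 0.64, against 2.42 to 3.48 on arrays 1 to 3. Its endothelial marker sum was also the highest, and the part of either measure in that difference was not tested. On arrays 1 to 3 alone, TNF against PBS was called in Cxcl10 without the block (2.23, limma adjusted p = 0.0440), and the combination against anti-LTBR was not (2.08, limma adjusted p = 0.0671).

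Set against the sum of the single changes on the linear scale, a comparison with no test, the combination was higher for Cxcl10 on each of 3 arrays. Array 1 had 1571 against a sum of 434.9, array 2 had 2064 against 624.1 and array 3 had 1187 against 546.2. These are ratios of 3.61, 3.31 and 2.17. On the log2 scale, where additivity means that the folds multiply, the interaction for Cxcl10 was 0.45 ± 0.62 with an interval of -0.89 to 1.79 (limma adjusted p = 1.00). The combination was thus above the sum on the linear scale, while its difference from the product of the folds was within its error. No gene was called higher in the interaction in this limma fit, and 165 had an unadjusted p under 0.05.

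**Figure D2:**
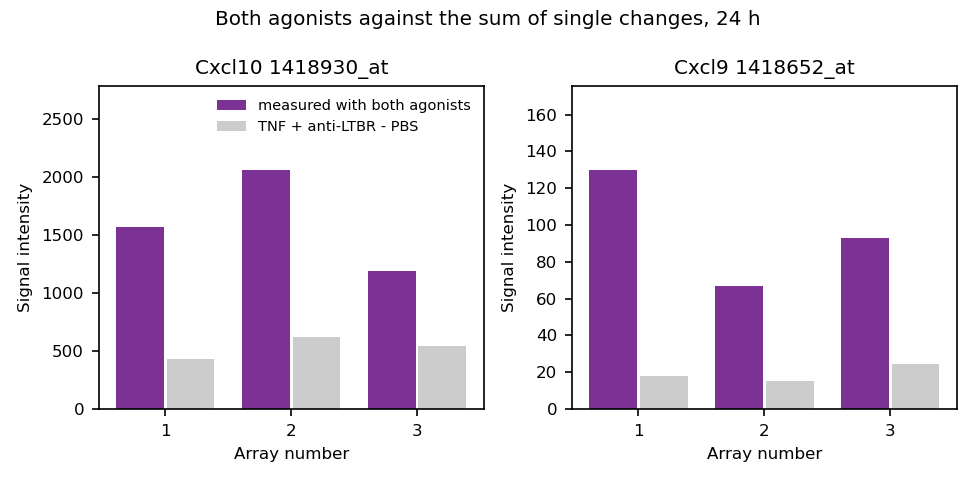
Bars of the signal at 24 h with both agonists beside the sum of the 2 single changes added to PBS, by array number, for Cxcl10 and for Cxcl9 1418652_at. The combination is above the sum on all 3 arrays, by 2.17 to 3.61 times for Cxcl10, and at 66.6 to 130 against sums of 15.5 to 24.3 for Cxcl9.

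At the early times Cxcl10 was high with TNF and not with anti-LTBR. At 2 h its signal was 698.1 with TNF, 91.4 with anti-LTBR and 102.8 with PBS. At 6 h it was 1221 with TNF, 136.2 with anti-LTBR and 98.6 with PBS. Each value is 1 array, all of number 0, and the TNF arrays stood well above both others. The log2 differences from PBS were 2.65 at 2 h and 3.50 at 6 h with TNF, which ranked Cxcl10 14th and 5th among 12446 genes by size of rise. At least a 2-fold rise was seen in 1.69 percent of those genes with TNF at 2 h and in 2.43 percent at 6 h. With anti-LTBR the differences were -0.15 at 2 h (rank 10343) and 0.43 at 6 h (rank 874), both under 2-fold, where 0.836 and 1.27 percent of genes reached that size.

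Within number 0, the TNF signal at 6 h was 6.08 times that at 24 h (1221 and 200.9). The anti-LTBR signal on the same number was 91.4, 136.2 and 137.2 at 2, 6 and 24 h, and PBS was 102.8, 98.6 and 84.2. So the TNF arrays of that number had a peak among the 3 times at 6 h, while the anti-LTBR and PBS arrays stayed between 84.2 and 137.2. The early times hold no array of another number.

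**Figure D3:**
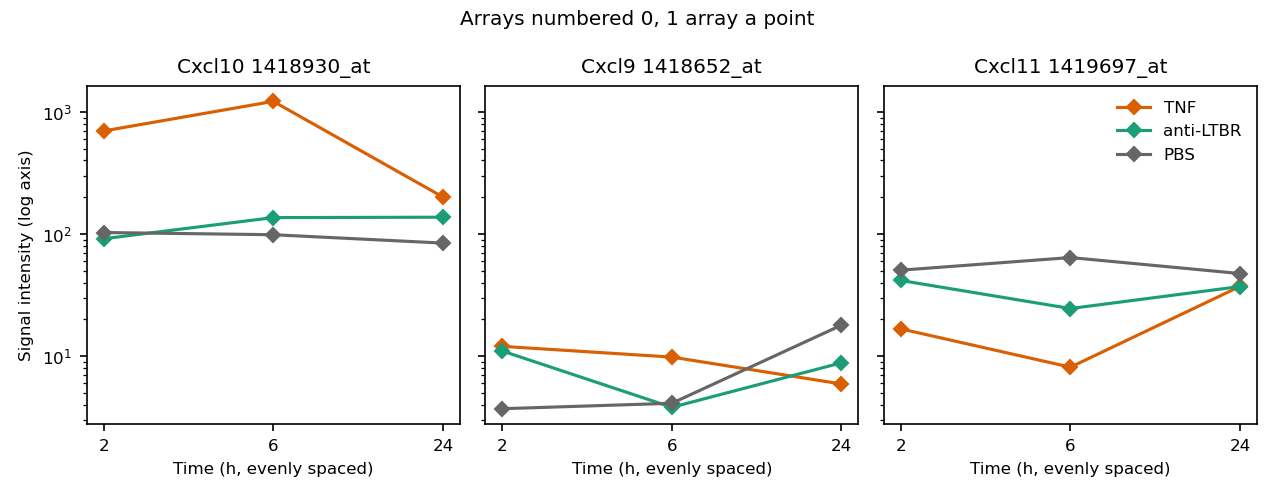
Signal of Cxcl10 1418930_at, Cxcl9 1418652_at and Cxcl11 1419697_at at 2, 6 and 24 h on a log axis, 1 array a point, for the arrays numbered 0 only, with times evenly spaced and lines joining the points of a treatment. Cxcl10 with TNF is at 698.1, 1221 and 200.9, and with anti-LTBR at 91.4, 136.2 and 137.2.

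Cxcl9 rose with the combination on 1 of its 2 probe sets, and neither agonist alone passed the test. On 1418652_at, which the annotation ties to the RefSeq messenger RNA of Cxcl9, the signal was 130.0, 66.6 and 92.7 with both agonists. It was 5.9, 13.5, 13.2 and 25.9 with TNF, 8.8, 11.7, 13.3 and 13.1 with anti-LTBR, and 17.9, 7.1, 11.0 and 14.7 with PBS. The combination arrays lay above all 12 others and the other 3 groups overlapped. The means were 96.4 ± 31.9 with both (SD, n = 3), 14.6 ± 8.30 with TNF, 11.7 ± 2.08 with anti-LTBR and 12.7 ± 4.67 with PBS (n = 4 each).

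Cxcl9 and Cxcl11 fell below the filter on low signal, so their tests come from a second fit, of 45037 probe sets with no filter. In it, Cxcl9 1418652_at was higher with both agonists than with PBS by 2.20 ± 0.29 log2 units (limma adjusted p = 0.000988). The PBS signal is near the added constant, which sets the size of this difference: it was 2.85 with a constant of 1 and 1.20 with 50, called in both. It was higher than with TNF by 2.12 ± 0.29 (limma adjusted p = 0.0368), a call lost on arrays 1 to 3 (limma adjusted p = 0.119) and in 11 of 15 fits without 1 array. With the number as a block this difference was 2.07 and was called (limma adjusted p = 0.00431), beside 0.948 percent of probe sets. Cxcl9 1418652_at was higher with both agonists than with anti-LTBR by 2.24 ± 0.29 (limma adjusted p = 0.00398). TNF alone differed from PBS by 0.08 (95 percent interval -0.48 to 0.65) and anti-LTBR alone by -0.04 (-0.61 to 0.52). The interaction for this probe set was 2.16 ± 0.39, with an unadjusted limma p of 5.99e-05 and an adjusted p of 1.00. Across the array the signal is low: it stood at the 37.4 to 53.7 percentile of its array with both agonists, and above the median on 1 of 21 arrays.

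At 2 and 6 h Cxcl9 1418652_at was at 12.0 and 9.8 with TNF, 11.0 and 3.8 with anti-LTBR, and 3.7 and 4.1 with PBS. All lay in the range of the 24 h arrays without the combination or below it, near the added constant of 10.2. The combination at 24 h exceeded the linear sum of the single changes on each array: 130 against 18.1, 66.6 against 15.5 and 92.7 against 24.3. These sums are built from signals in the low range of their arrays, so no ratio is given.

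The other Cxcl9 probe set, 1456907_at, did not show this. Its signal was 97.8, 60.7 and 43.1 with both agonists, 14.6, 53.7, 57.6 and 52.9 with TNF, 21.6, 7.9, 31.7 and 2.2 with anti-LTBR, and 17.7, 40.7, 14.3 and 49.2 with PBS. The combination overlapped with TNF and with PBS, and lay above every anti-LTBR array. At 2 and 6 h it was at 15.9 and 51.3 with TNF, 21.3 and 28.2 with anti-LTBR, and 63.6 and 53.9 with PBS. The difference from PBS was 0.97 ± 0.48 (limma adjusted p = 0.699) and from anti-LTBR 1.67 ± 0.48 (limma adjusted p = 0.513). The 2 probe sets of Cxcl9 thus disagree on whether a change passed the test, and a value for the gene depends on which is read.

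Cxcl11 showed no change that passed the test on either probe set. On 1419697_at the signal was 81.9, 52.5 and 55.0 with both agonists, 37.2, 88.4, 74.5 and 72.4 with TNF, 37.1, 33.6, 52.0 and 81.3 with anti-LTBR, and 47.4, 32.5, 64.3 and 82.2 with PBS. All 4 groups overlapped, and the difference of the combination from PBS was 0.17, with a 95 percent interval of -0.56 to 0.90. On 1419698_at the signal was 48.8, 46.6 and 34.4 with both, 38.5, 34.7, 21.8 and 31.7 with TNF, 36.5, 37.2, 24.3 and 42.4 with anti-LTBR, and 44.6, 53.8, 12.2 and 12.2 with PBS. The PBS arrays spanned the range of the other groups. The difference of the combination from PBS was 0.54 (interval -0.23 to 1.31, limma adjusted p = 0.855). Neither was above the median of its array on any of 21 arrays. At 2 and 6 h, 1419697_at was at 16.7 and 8.1 with TNF against 50.5 and 64.1 with PBS, from 1 array each, and 1419698_at at 31.5 and 51.4 with TNF against 37.0 and 26.6 with PBS.

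**Figure D4:**
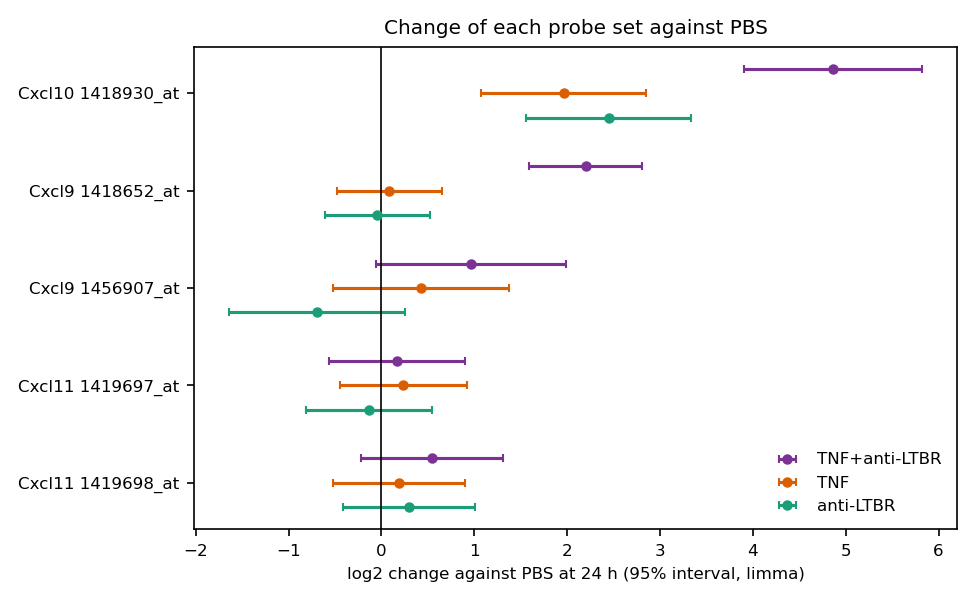
Log2 difference from PBS at 24 h of the 5 probe sets with each treatment, as points with the 95 percent interval from the limma fit of all probe sets. Cxcl10 with both agonists is at 4.87 and Cxcl9 1418652_at at 2.20, while the Cxcl11 intervals cross 0.

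Counted over the 5 probe sets in the fit of all probe sets, 2 were called higher with both agonists than with PBS, where 0.711 percent of all probe sets were. With anti-LTBR 1 of 5 was called (0.0666 percent of all) and with TNF 0 of 5 (0.113 percent), where 1 of 5 was under 0.05 before adjustment in limma. With the number as a block the counts were 2 of 5 with both (3.45 percent of all), 1 of 5 with TNF (1.01 percent) and 1 of 5 with anti-LTBR (0.822 percent). Against TNF alone the combination gave 1 of 5 (0.00666 percent) and against anti-LTBR alone 1 of 5 (0.131 percent). With the block these 2 counts were 2 of 5 (0.948 percent) and 2 of 5 (0.899 percent). Probe sets whose combination arrays all lay above all PBS arrays were 2 of 5 (4.2 percent of all). Over TNF alone these were also 2 of 5 (2.67 percent), and over anti-LTBR alone 3 of 5 (3.28 percent).

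Whether the members changed unequally was asked with 9 exact two-sided permutation tests on differences within arrays, for the probe set of each gene with the highest mean (1456907_at for Cxcl9). The change in Cxcl10 exceeded that in Cxcl9 by 3.90 log2 units with both agonists, by 1.53 with TNF and by 3.15 with anti-LTBR. With the RefSeq probe set of Cxcl9, an alternative chosen after seeing the data, these were 2.66, 1.88 and 2.49, and none passed after adjustment (lowest adjusted exact p 0.0643). The change in Cxcl10 exceeded that in Cxcl11 by 4.69, 1.73 and 2.58 in the same order. For Cxcl9 minus Cxcl11 the values were 0.80, 0.19 and -0.57 (adjusted exact p = 0.294, 0.600 and 0.546). With the RefSeq probe set of Cxcl9 they were 2.03, -0.16 and 0.088 (adjusted exact p = 0.0735, 0.675 and 0.857). The size with both agonists thus depends on the Cxcl9 probe set. The smallest exact p these group sizes allow is 0.0571 for the combination (3 against 4 arrays). For a single agonist (4 against 4) it is 0.0286. Of the 6 differences of Cxcl10 from another member on the highest-mean probe sets, 5 reached the smallest p for their group sizes. None passed after Benjamini-Hochberg adjustment over the 9 tests, where the lowest adjusted exact p was 0.0857.

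By the measure of like pattern, the mean absolute difference of log2 changes over the 7 treated conditions, Gbp2 was nearest to Cxcl10 at 0.605. Scube3, a secreted signalling protein, followed at 0.667, then the immunoproteasome subunits Psmb9 (0.758) and Psmb8 (0.766), and Gbp6 (0.820). Gbp2 and Gbp6 are interferon-inducible GTPases. Gbp2 changed by 2.48 and 3.21 with TNF at 2 and 6 h, by 2.58 with TNF at 24 h, by 0.88 with anti-LTBR at 24 h and by 3.57 with both. Cxcl10 changed by 2.65, 3.50, 1.96, 2.45 and 4.87 in those conditions. Scube3 was nearer on the anti-LTBR arrays at 24 h, at 2.69. For Cxcl9 1418652_at the nearest were Ccl17 (0.285), Itih5 (0.305) and Car9 (0.307). With both agonists these changed by 0.72, 1.92 and 1.01 in that order, against 2.20 for Cxcl9. Without the combination the signals of this Cxcl9 probe set were low (3.7 to 25.9), so its ranking rests mostly on low signals.

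**Figure D5:**
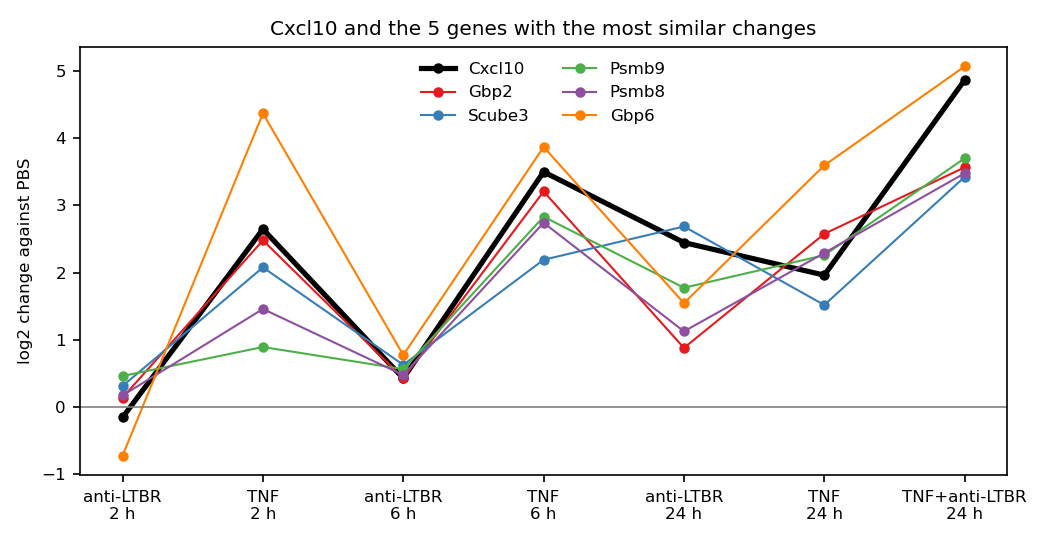
Log2 change from PBS of Cxcl10 and of the 5 genes nearest to it over the 7 treated conditions, in which lines join conditions for reading only. All 6 genes are above 3 with both agonists at 24 h, and Gbp6 is above Cxcl10 with TNF at 2 h (4.37 against 2.65).

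Genes for CXCR3, its further ligand Pf4, chemokine scavenging receptors and ligand-cleaving proteases were read from a list. Not every receptor on it need bind these 3 ligands. Of 8 listed genes 6 were tested and 0 were called by limma with the combination (2 at an unadjusted p under 0.05). The median change was 0.12 log2 units against 0.00 over all genes tested. Cxcr3 itself changed by -0.15 (limma adjusted p = 0.914). With the number as a block, where 9.1 percent of genes were called higher and 10.4 percent lower, 2 were called higher and 1 lower: Mmp9, a protease that cuts these ligands, at 1.53 (limma adjusted p = 0.0123), Ackr3, a scavenging chemokine receptor, at 0.35 (0.0188), and Ackr4 at -0.75 (0.00219).

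Interferons are the textbook inducers of the family. Of 8 genes for interferons and cytokines that induce interferon gamma, 2 passed the filter, Il18 and Ifna2, and 0 were called by limma with the combination, also 0 at an unadjusted p under 0.05. Ifna2 was at -1.16 with anti-LTBR against PBS, which was called with the block (limma adjusted p = 0.0271) and not without it (0.999). Its signals were low and overlapped, at 16.4 to 97.1 with anti-LTBR and 32.1 to 201.7 with PBS. They were above the array median on 3 of 21 arrays. Ifng was listed at 2.5 to 55.5 and above its array median on 0 of 21 arrays, and Ifnb1 at 54.8 to 134.8 and above it on 1. The interferon receptor and JAK-STAT genes were tested with both agonists: 7 of 16 tested were called higher and 0 lower, beside 1.82 and 0.635 percent of all genes, with a median change of 0.62. With TNF 3 were called higher (0.337 percent of all genes) and with anti-LTBR 1 (0.129 percent). With the block these counts were 13, 7 and 6, where 9.1, 3.06 and 2.55 percent of all genes were called higher. Irf1, a transcription factor of the interferon response, rose by 1.11 ± 0.09 with both (limma adjusted p = 1.48e-05), by 0.60 with TNF (0.00226) and by 0.55 with anti-LTBR (0.0128). Irf7 rose by 2.36 (0.0193) and Stat2 by 1.49 (0.0174) with both. Ifngr1 and Ifngr2, the chains of the interferon gamma receptor, rose by 1.02 (0.00686) and 1.06 (0.00107). Ifnar1 and Ifnar2, the chains of the type I interferon receptor, rose by 0.45 (0.0466) and 0.79 (0.000922).

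Of 8 tested NF-κB subunits and inhibitors 7 were called higher with both agonists, 5 with TNF and 2 with anti-LTBR, beside 1.82, 0.337 and 0.129 percent of all genes. The median changes were 2.04, 1.31 and 0.99. With the block the counts were 8, 7 and 7, beside 9.1, 3.06 and 2.55 percent. Nfkb2, the precursor of p52, rose by 2.75 with both, 1.49 with TNF and 2.31 with anti-LTBR. Relb, its partner, rose by 2.09 with both and 1.43 with TNF. With anti-LTBR Relb was at 0.84, called with the block (limma adjusted p = 0.00441) and not without it (0.151). Rela changed by 0.36 with both (limma adjusted p = 0.162). Of 9 tested receptors and adaptors of the agonists 4 were called higher with both agonists (1.82 percent of all genes), among them Birc3 by 2.43 and Tnfrsf1b by 1.07. The receptors Ltbr and Tnfrsf1a changed by 0.02 and 0.12 with both (limma adjusted p = 0.985 and 0.897).

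The neighbours of the ligand genes on chromosome 5 were not called in the fit without the block. Of 6 flanking genes 5 were tested and 0 were called by limma with the combination, with 1 at an unadjusted p under 0.05. Of all genes 1.82 percent were called higher there and 0.635 percent lower. Art3, which holds Cxcl10 and Cxcl11, changed by 0.49 (limma adjusted p = 0.841). Scarb2 was called with the block only (0.36 without it, limma adjusted p = 0.0111 with it), where 9.1 percent of all genes were called higher.

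Markers of T cells and natural killer cells, which carry CXCR3, were summed over 9 genes. At 24 h the sum was 532 to 927 with both agonists, 538 to 913 with TNF, 528 to 763 with anti-LTBR and 490 to 916 with PBS. Cd8a alone was at 266.3 to 638 over the 21 arrays, and it was the only gene of this list to pass the filter. Each of the others was above its array median on 0 of 21 arrays. This sum therefore holds 1 probe set with signal above the median and low signals of the rest. The macrophage list of 9 genes summed to 1611 to 4621 with both, 1220 to 3607 with TNF, 1163 to 3290 with anti-LTBR and 1441 to 4439 with PBS. The ranges overlap across all 4 groups in both lists, and the highest sums in both were on arrays numbered 3. Of 8 smooth muscle markers 1 was called lower with both agonists and 0 higher (0.635 percent of all genes were lower), and with the block 5 were lower (10.4 percent of all genes). Their sums at 24 h overlapped, at 30204 to 39203 with both and 36957 to 47307 with PBS. The part of this in the ligand results was not tested.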

How the data were processed

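Smooth muscle cells were profiled on Affymetrix mouse arrays, 1 per sample, and all 21 arrays were used. The deposited values are linear signal intensities, per the submitters' processing notes from GCOS 1.4; how probes were summarized and background removed is not given in the sources used here. Each array has a trimmed mean of 500.0 after 2 percent is removed at each end, so no further scaling was applied. Gene names come from the platform annotation, and sequences and coordinates from RefSeq tables of GRCm38.p6; 2 of the 3 genes have a promoter there.

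Before testing, 10.2 was added to each signal (the 10th percentile of the 24 h values) and log2 taken. The fit of genes used 1 probe set a gene, the highest in mean, of those above their array median on at least 3 of 15 arrays (25110 probe sets, 12446 genes). A second fit took all 45037 probe sets other than 64 controls. Both used limma 3.58.1 in R 4.3.3 with a trend of variance on mean signal (11 residual degrees of freedom, or 8 with the block) and Benjamini-Hochberg adjustment, with calls at 0.05. The scripts were tested on simulated data. Differences between members within an array were compared, treated against PBS, with exact permutation tests in scipy 1.17.1.

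Numbers pair the arrays: with group means removed, 21 pairs of the same number correlated at 0.40 to 0.76 and 63 other pairs at -0.54 to 0.22. Named genes are the 3 ligands with all their probe sets, the 5 genes nearest to each and the members of the lists described. The members and lists were chosen with earlier results of these data known. Alternatives were the scaling, pseudocount, filter, trend, probe set choice, block and leaving out each array.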

Additional observations from a re-analysis of the deposited data

Results flagged for a closer look

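On Cxcl9 probe set 1456907_at, 1 of the 4 TNF arrays at 24 h stood apart as the lowest, at 14.6 against 52.9 to 57.6 on the others. It carries the number 0. Of 15 groups of 4 arrays tested at the 95 percent level this was the only such result, and chance flags about 5 percent of groups. The probe set's other values did not pass the test.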

How the results depend on the processing

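Of 984 values recomputed for 44 results under other settings, 869 kept their direction and their side of the threshold, 65 fell below it, 5 rose past it and 45 changed sign. Those 45 are differences that were called neither before nor after the change of setting. Cxcl10 and Cxcl9 1418652_at with both agonists against PBS kept their call in every setting run. With the replicate block, which uses the pairing of the arrays by number, TNF against PBS in Cxcl10 was called at 1.96, and it was called on arrays 1 to 3 alone at 2.23; no other call of the members in the gene fit or of Cxcl9 and Cxcl11 changed with the block. The combination against TNF in Cxcl10 missed the threshold with arrays scaled to equal medians (2.86), with a pseudocount of 1 (2.96), and with no variance trend, no filter or all probe sets tested (2.90). Anti-LTBR against PBS in Cxcl10 missed it with a pseudocount of 1 (2.73), and with no trend, no filter or only those groups (2.45). The combination against anti-LTBR in Cxcl10 missed it with a pseudocount of 1 (2.46), with no trend, all probe sets or only those groups (2.42), and on arrays 1 to 3 (2.08). For Cxcl9 1418652_at the combination against TNF missed it with equal medians (2.09), a pseudocount of 1 (2.75), the mean of both probe sets (1.33), arrays 1 to 3 (1.93) and only those groups (2.12). The mean of both Cxcl9 probe sets was called against PBS (1.58) and against anti-LTBR (1.95). The cause of these changes was not tested.

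Leaving out 1 array at a time, the Cxcl10 values ran from 2.06 to 2.78 for anti-LTBR against PBS, where 13 of 15 lost the call (all but PBS array 0 and anti-LTBR array 0), and from 1.57 to 2.23 for TNF against PBS, where leaving out anti-LTBR array 0 gave a call. They ran from 2.70 to 3.10 for the combination against TNF (12 lost it; all but PBS arrays 0 and 1 and anti-LTBR array 0) and from 2.08 to 2.64 against anti-LTBR (10 lost it; all but PBS arrays 0, 1 and 3, TNF array 0 and anti-LTBR array 3). For Cxcl9 1418652_at against TNF they ran from 1.90 to 2.33 (11 lost it; all but PBS array 1, TNF array 3 and anti-LTBR arrays 0 and 1). The number of arrays limits the precision throughout.

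The changes of sign were in small differences, on the log2 scale. On arrays 1 to 3 the interaction was -0.15 for Cxcl10, -0.21 for Cxcl11 1419697_at and -0.037 for 1419698_at, and anti-LTBR against PBS was 0.13 for Cxcl9 1418652_at. With equal medians the Cxcl11 interactions were -0.038 and -0.019 and that Cxcl9 difference 0.0045. With quantile normalization they were -0.041, -0.021 and 0.026. The interaction of 1419697_at was -0.063 with the replicate block and that of 1419698_at -0.012 with a pseudocount of 1. With the mean of both Cxcl11 probe sets, anti-LTBR against PBS was 0.084, the combination against TNF 0.15 and TNF against anti-LTBR 0.13. With the RefSeq probe set of Cxcl9, an alternative chosen after seeing the data, Cxcl9 minus Cxcl11 was 0.088 with anti-LTBR and -0.16 with TNF. Leaving out 1 array at a time, Cxcl9 1418652_at ran from -0.17 to 0.064 for anti-LTBR against PBS, -0.12 to 0.27 for TNF against PBS and -0.075 to 0.31 for TNF against anti-LTBR. Cxcl11 1419697_at ran from -0.34 to 0.045 for anti-LTBR and -0.025 to 0.35 for the combination against PBS, -0.29 to 0.061 for the combination against TNF, and -0.16 to 0.28 for the interaction. Cxcl11 1419698_at ran from -0.050 to 0.46 for TNF against PBS, -0.24 to 0.010 for TNF against anti-LTBR and -0.21 to 0.30 for the interaction. Cxcl9 minus Cxcl11 with TNF ran from -0.091 to 0.53.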
